A study of Mus musculus with 29 samples.

Results

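Peritoneal tissue bearing YTN16 gastric tumors was compared between untreated mice killed in week 5 (day 35) and untreated mice killed in week 3 (day 21). The members were the 5 libraries labelled as controls at day 35 and the 5 labelled as controls at day 21, 10 of the 29 RNA-seq libraries of the series, and every gene of the table entered the comparison. YTN16 is a transplantable mouse gastric cancer line that grows in immunocompetent C57BL/6J mice. Per the study's methods, female mice aged 5 to 6 weeks received YTN16 cells IP on day 0, and the untreated mice of both time points then received IP injections of PBS, with later injections added in those kept to day 35. The methods describe the tissue as stripped peritoneum, with nodules where there were any, and the labels call it tumor tissue, so tumor, muscle of the abdominal wall, fat and mesothelium came in 1 sample, and fewer cells of a type cannot be told apart from less RNA per cell. The other 19 libraries came from mice given anti-PD1, anti-CTLA4 or both (dual ICI) and are used only for description. The hour of collection is not given in the sources used here.

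Peritoneal dissemination is the seeding of the lining of the abdomen by tumor cells, which attach to mesothelium, recruit fibroblasts and blood vessels and lay down matrix. Muscle and fat of the host next to such tumors are known to change their gene expression as disease advances. Nearly all of these tissues also carry a circadian clock, in which BMAL1 (encoded by Arntl) pairs with CLOCK or NPAS2 to drive the Per and Cry genes and output genes such as Dbp and Ciart through E-boxes, while PER and CRY proteins repress that drive and REV-ERB and ROR receptors set Arntl through RRE elements.

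The libraries held between 27581158 and 28681432 counts at day 21 and between 26641402 and 31080946 at day 35. Levels are given below as CPM, counts scaled for depth on TMM-scaled library sizes, and a gene was called when its edgeR quasi-likelihood test had a Benjamini-Hochberg adjusted p under 0.05 over all genes tested. Of 15604 genes tested, 973 were called higher at day 35 (6.24%) and 714 lower (4.58%), 10.8% in all, and the median log2 fold change of all genes was 0.022. The groups did not overlap in 940 genes that were higher (6.02%) and in 803 that were lower (5.15%). The shares called, 6.24% higher and 4.58% lower, are those to set beside every list count below.

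Day 35 library 2 stood apart from the rest. The 28 genes of a gastric epithelium list, used here as tumor markers, took 0.122% of its counts against 0.44% to 0.488% in the other 4 day 35 libraries and 0.104% to 0.364% at day 21. A list of 28 skeletal muscle genes took 24.2% of its counts, against 7.16% to 15.7% in the other 4 and 9.17% to 18.7% at day 21. Without it, 2577 genes were called higher (16.4%) and 2338 lower (14.8%), and these held all 1687 genes called with it. The count without another library was 735, 692, 854 and 654 for day 21 libraries 1, 2, 3 and 5 and 1078 and 724 for day 35 libraries 4 and 5, while no called gene changed sign in any of these fits. Library codes in the labels form 1 series for all day 35 libraries and another for all day 21 libraries, so time and series cannot be told apart. Mice killed at day 35 were also older and had received more PBS injections, and neither can be told apart from time with the tumor.

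**Figure D1:**
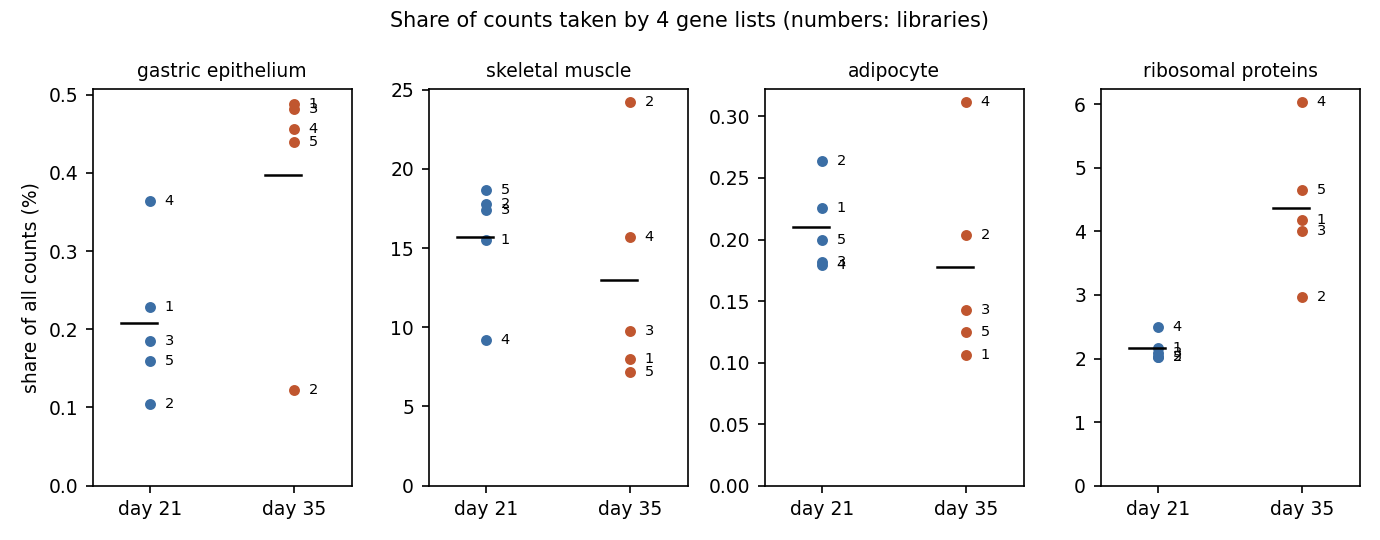
Share of all counts (%) taken by the gastric epithelium, skeletal muscle and adipocyte marker lists and by 87 cytosolic ribosomal protein genes, in each untreated library (points, with library numbers) and their mean (horizontal lines). Day 35 library 2 is the lowest of its group for gastric epithelium at 0.122% and the highest for muscle at 24.2%, and every day 35 library is above every day 21 library for ribosomal proteins.

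Genes of the circadian clock changed in both directions. Of 16 tested, 4 were called higher (Per1, Per3, Dbp and Ciart) and 4 lower (Arntl, Npas2, Cry1 and Nfil3). With 1 library left out, the counts were 3 to 5 higher and 2 to 4 lower. Npas2 (chromosome 1, 39193731 to 39363236, GRCm38), a partner of BMAL1, was 17.7, 15.6, 16.6, 20.9 and 15.4 CPM at day 21 and 4.28, 3.77, 4.74, 4.56 and 5.55 CPM at day 35. All day 35 libraries were below all day 21 libraries, and the level fell by 1.91 on the log2 scale (standard error 0.15, edgeR adjusted p = 0.000553). Arntl (chromosome 7, 113207465 to 113314126) was 45.4, 44.5, 45.2, 34.8 and 44.4 CPM at day 21 and 15.3, 19.6, 13.1, 16.2 and 21.2 CPM at day 35, again without overlap (fell by 1.33 on the log2 scale, standard error 0.15, edgeR adjusted p = 0.00212). Clock, which encodes the other partner and was named after its values were seen, was 82.8 ± 9 CPM (SD, n = 5) at day 21 and 62.6 ± 13.5 CPM (SD, n = 5) at day 35 and was not called (edgeR adjusted p = 0.114).

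Dbp, Ciart and Per1 moved the other way. Dbp (chromosome 7, 45705088 to 45710203), which encodes a transcription factor that binds D-boxes, was 5.12, 14.6, 8.55, 4.8 and 11.3 CPM at day 21 and 30.3, 101, 55.4, 56.6 and 28.5 CPM at day 35. The lowest day 35 library was above the highest day 21 library, and the difference on the log2 scale was 2.62 (standard error 0.41, edgeR adjusted p = 0.0062). Exons of Sphk2 overlap 18.0% of the exon bases of Dbp on the other strand. For Ciart (chromosome 3, 95878503 to 95882251), a repressor of the clock, the levels were 0.717, 0.68, 0.629, 1.11 and 0.875 CPM at day 21 and 1.97, 6.05, 4.29, 3.25 and 2.21 CPM at day 35 (log2 fold change 2.13, standard error 0.34, edgeR adjusted p = 0.00633). Per1 (chromosome 11, 69095217 to 69109960), a core repressor that glucocorticoids also induce, was 24, 22, 24.3, 23.1 and 61.6 CPM at day 21 and 67.2, 122, 77.2, 83.5 and 67.6 CPM at day 35. Its groups did not overlap, although day 21 library 5 lay close to the day 35 range (log2 fold change 1.43, standard error 0.30, edgeR adjusted p = 0.0173).

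The other called members were Per3 (log2 fold change 1.17, edgeR adjusted p = 0.0288), Cry1 (fell by 1.01, edgeR adjusted p = 0.0186) and Nfil3, which encodes a repressor at D-boxes (fell by 0.83, edgeR adjusted p = 0.0464). In these 3 genes, which were named after their values were seen, the ranges of the groups overlapped. Leaving out 1 library ended the call of Cry1 without day 21 library 5 (edgeR adjusted p = 0.05), of Per3 without day 21 library 1, 3 or 5 or day 35 library 3 (up to 0.0749), and of Nfil3 without day 21 library 1, 2, 3 or 5 or day 35 library 1, 3 or 5 (up to 0.116). Calls of Npas2, Arntl, Dbp, Ciart and Per1 held in all 10 such fits and in all 15 other alternatives. Nr1d1, which encodes REV-ERB alpha, and Per2 were also named after their values were seen. Nr1d1 was 178 ± 54.5 CPM at day 21 and 153 ± 50.8 CPM at day 35 (SD, n = 5, edgeR adjusted p = 0.625), and Per2 was 17.2 ± 5.63 and 28.4 ± 8.13 CPM (SD, n = 5, edgeR adjusted p = 0.0804).

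**Figure D2:**
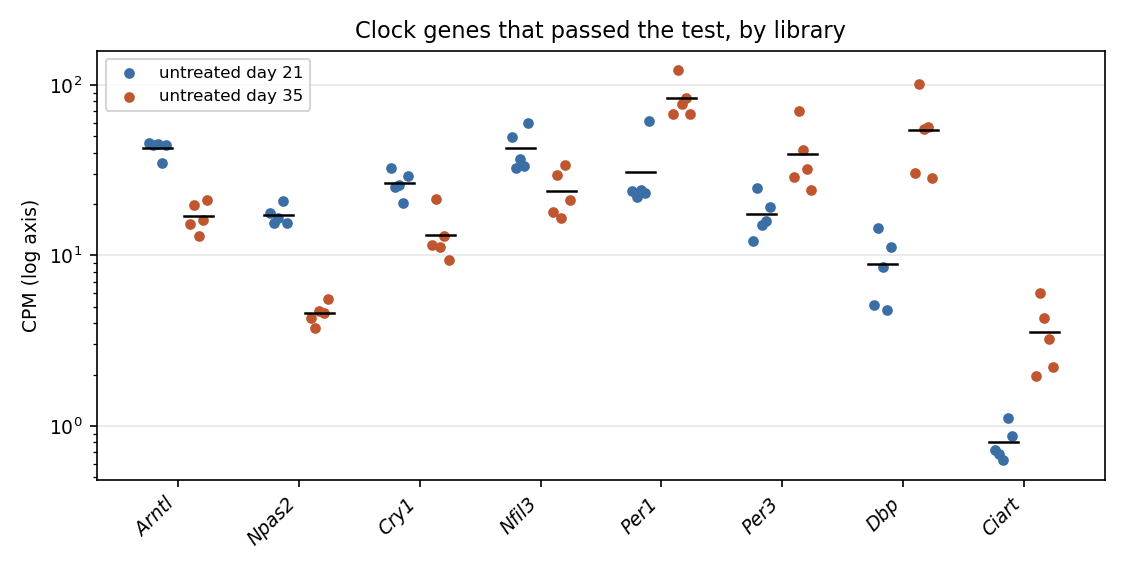
Levels of the 8 called clock genes in CPM (log axis) in the 5 day 21 and 5 day 35 untreated libraries (points) with group means (horizontal lines). Arntl, Npas2, Cry1 and Nfil3 are lower at day 35 and Per1, Per3, Dbp and Ciart higher, and the groups do not overlap for Arntl, Npas2, Per1, Dbp and Ciart.

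Elements that the clock factors bind stand in the RefSeq start regions (GRCm38.p6, 250 bases before to 50 after each start) of several of these genes. The stretches of 5 called genes are shown, so that each kind of element can be seen beside the direction of its gene. The search used the E-box CACGTG, the D-box TTATGTAA and the RRE GTAGGTCA on both strands, and capitals mark a match. Of 32851 start regions, 7.15% held the E-box, 0.938% the D-box and 0.621% the RRE, and 15 of the 16 clock genes had a region (20 regions).
Ciart, 3 E-boxes, chr3:95882259-95882353, minus strand: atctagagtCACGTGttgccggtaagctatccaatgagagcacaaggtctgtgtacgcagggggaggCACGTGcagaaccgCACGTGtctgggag
Per1, 1 E-box, chr11:69098759-69098818, plus strand: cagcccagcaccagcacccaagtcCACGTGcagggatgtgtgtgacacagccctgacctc
Per3, 2 D-boxes, chr4:151044806-151044880, minus strand: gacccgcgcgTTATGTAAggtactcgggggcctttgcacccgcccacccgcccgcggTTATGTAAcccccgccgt
Nfil3, 1 RRE read on the opposite strand, chr13:52981040-52981109, minus strand: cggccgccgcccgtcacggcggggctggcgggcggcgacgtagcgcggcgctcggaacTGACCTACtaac
Arntl, 1 RRE, chr7:113207530-113207555, plus strand: aaggcagaaaGTAGGTCAgggacgga
Counted from the RefSeq start of each region, the E-boxes of Ciart begin 116, 58 and 44 bases before and that of Per1 166 bases before. The D-boxes of Per3 begin 205 and 158 bases before, the RRE of Nfil3 12 bases before and that of Arntl 30 bases after. For Per1, the region and its E-box lie inside the gene span given above, so the start used is an internal one. The genes with an E-box here, Ciart and Per1, were higher at day 35, and those with an RRE, Arntl and Nfil3, were lower. Element and direction did not match throughout, since Cry1, which was lower, had an E-box 60 bases before its start. No match to any of these elements was found for Dbp or Npas2, although both were called. Tef and Bhlhe41, which were named after their values were seen, also had an E-box and were not called (edgeR adjusted p = 0.185 and 0.289). A match is a description of letters only, and binding was not measured.

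Across the treated libraries, the same genes separated the 2 time points in part. In CPM scaled over all 29 libraries, the 19 day 35 libraries, treated ones included, all lay above the 10 day 21 libraries in 13 of the 15604 genes (0.0833%) and below them in 9 (0.0577%). Ciart was among the first and Npas2 among the second. The median of Npas2 was 16.3 CPM in untreated and 10.8 CPM in dual ICI mice at day 21, against 4.42, 4.9, 4.44 and 3.45 CPM in untreated, anti-PD1, anti-CTLA4 and dual ICI mice at day 35. Arntl reached 40.1 CPM in 1 anti-PD1 library at day 35, within the day 21 range. Dbp and Per1 did not separate the days over all libraries. At day 21 the median of Dbp was 8.38 CPM in untreated mice and 30.7 CPM in dual ICI mice, where it ranged from 11.0 to 46.2 CPM. Its lowest value at day 35 in anti-CTLA4 mice was 17.4 CPM. Per1 reached 59.9 CPM in untreated mice at day 21 and was as low as 45.5 CPM in anti-CTLA4 mice at day 35.

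Several genes of fatty acid and triglyceride synthesis fell at day 35. Of 20 genes tested in a lipogenesis list, which was written after values had been seen, 8 were called lower and 0 higher, and 12 did not pass the test. Leaving out 1 library gave 6 to 11 lower. Scd1 (chromosome 19, 44394455 to 44407879), the desaturase that makes monounsaturated fatty acids, was 1312, 1652, 441, 499 and 1164 CPM at day 21 and 172, 116, 124, 130 and 93.9 CPM at day 35. Its lowest day 21 library exceeded its highest day 35 library (fell by 2.99 on the log2 scale, standard error 0.38, edgeR adjusted p = 0.00338). Fasn (chromosome 11, 120805846 to 120824547), fatty acid synthase, was 860, 1160, 391, 523 and 1027 CPM at day 21 and 236, 97.4, 187, 193 and 156 CPM at day 35, without overlap (fell by 2.19, standard error 0.33, edgeR adjusted p = 0.0062). Pnpla3 (chromosome 15, 84167837 to 84187236), a lipid droplet protein whose gene is induced by feeding, was 90.8, 97.5, 59.5, 48.9 and 74.3 CPM at day 21 and 12.2, 16.4, 6.96, 16.9 and 9.79 CPM at day 35 (fell by 2.58, standard error 0.27, edgeR adjusted p = 0.00212). Dual ICI mice did not show a gap of this size between the days. In CPM scaled over all 29 libraries, their medians at day 21 and day 35 were 428 and 328 for Scd1. For Fasn they were 376 and 329, and for Pnpla3 32.9 and 30.1. In untreated mice the medians were 1130 and 123 for Scd1, 838 and 185 for Fasn, and 72.2 and 12.2 for Pnpla3.

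Other called members were Acaca, Dgat2, Thrsp, Acly and Mlxipl. Acaca, which makes malonyl-CoA, was 105 ± 32.2 CPM at day 21 and 44.5 ± 3.37 CPM at day 35 (SD, n = 5, fell by 1.24, edgeR adjusted p = 0.00633). Dgat2, which completes triglycerides, fell by 1.61 (edgeR adjusted p = 0.0135), and Thrsp, a marker of lipogenic tissue named after its values were seen, fell by 2.00 (edgeR adjusted p = 0.0185). These 6 genes were called in all 10 fits that left out a library. Acly kept its call in 3 of those fits (edgeR adjusted p up to 0.111) and Mlxipl in 2 (up to 0.0635). With the muscle and gastric scores as covariates, 7 of the 20 were called lower, without Thrsp (edgeR adjusted p = 0.0541).

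Among 11 adipocyte genes tested, 9 had a lower mean at day 35 (median log2 fold change -0.42) and 1 was called lower, against 3 without day 35 library 2 and 8 without day 35 libraries 2 and 4. The 1 called was Plin1, the coat protein of lipid droplets (fell by 1.33, edgeR adjusted p = 0.0215). This gene lost its call without day 21 library 1, 2 or 5 or day 35 library 5 (up to 0.0577). The adipocyte list took 0.179% to 0.264% of the counts at day 21 and 0.106% to 0.312% at day 35. Adipoq, which encodes adiponectin and is specific to fat cells, was 85.6, 143, 64, 76.2 and 86.6 CPM at day 21 and 25.1, 86.8, 46.6, 116 and 44.5 CPM at day 35, with overlap (edgeR adjusted p = 0.372). Day 35 library 4 held the highest adipocyte share of all 10 libraries, and there Scd1 was 130 CPM and Fasn 193 CPM, below every day 21 library. The part of fat content in the fall of the synthesis genes was not tested.

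In a list of 20 genes of lipolysis and fatty acid oxidation, also written after values had been seen, 2 were called higher and 1 lower. These counts stand beside 6.24% higher and 4.58% lower over all genes. Leaving out 1 library gave 1 to 3 higher and 0 to 5 lower. Acot1, an acyl-CoA thioesterase, was 10.6, 8.32, 9.18, 9.38 and 6.09 CPM at day 21 and 17.3, 20.8, 19, 31.8 and 28.3 CPM at day 35, without overlap (log2 fold change 1.43, standard error 0.21, edgeR adjusted p = 0.00535).

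**Figure D3:**
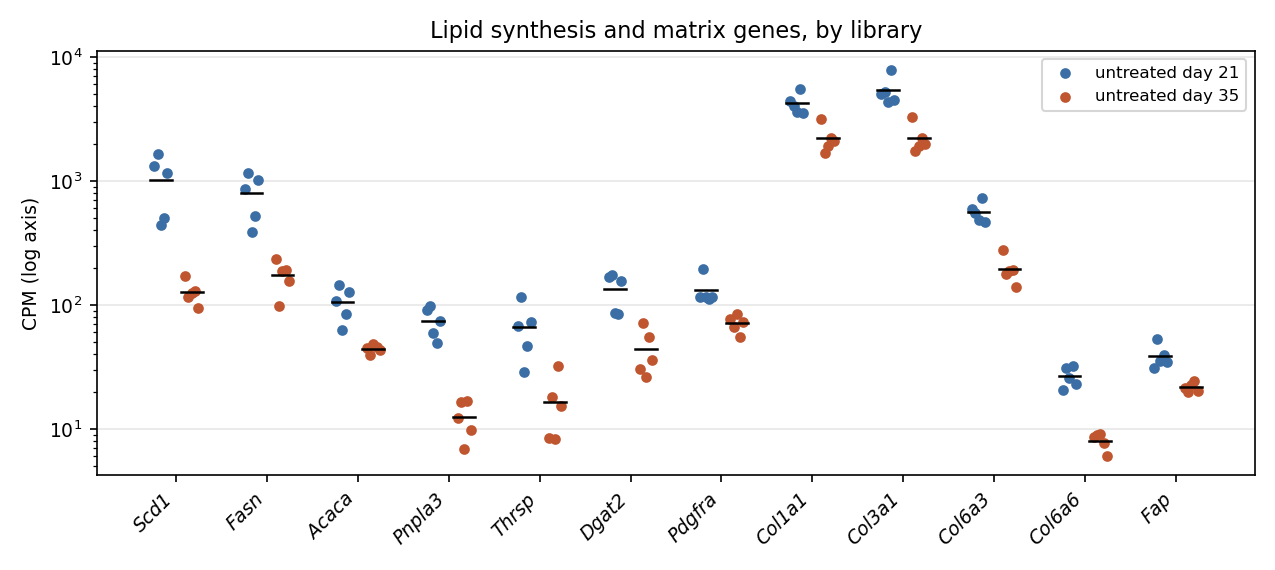
Levels of 6 lipid synthesis genes and 6 fibroblast or matrix genes in CPM (log axis) in each untreated library (points) with group means (horizontal lines). All 12 have lower means at day 35, and the groups overlap only for Thrsp.

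Several fibroblast and matrix genes fell at day 35. Of 12 fibroblast markers tested, 5 were called lower and 0 higher, with a median log2 fold change of -0.78, and the score of the list (mean log2 CPM) was 8.45 to 9.05 at day 21 and 7.83 to 8.28 at day 35, without overlap. With 1 library left out, 1 to 6 fibroblast markers were called lower. The count was 1 without day 35 library 5 and 2 without day 35 library 3 or 4 or any day 21 library. In a list of 24 collagen and matrix genes, 9 were called lower and 0 higher. This became 3 lower without day 35 library 5 and 14 without day 35 library 2. Col3a1 (chromosome 1, 45311538 to 45349706), the fibrillar collagen of soft tissue, was 5060, 5215, 4328, 7837 and 4474 CPM at day 21 and 3302, 1740, 1929, 2221 and 1998 CPM at day 35. The groups did not overlap (fell by 1.27 on the log2 scale, standard error 0.27, edgeR adjusted p = 0.0187). The call was lost without day 35 library 5 (0.0513). Col6a3 (chromosome 1, 90765923 to 90843971), a chain of the microfibril collagen VI, was 591, 548, 481, 728 and 469 CPM at day 21 and 276, 178, 188, 192 and 141 CPM at day 35 (fell by 1.53, standard error 0.20, edgeR adjusted p = 0.00434).

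Pdgfra, the receptor that marks most fibroblasts, was 117, 196, 115, 111 and 116 CPM at day 21 and 77.7, 66.1, 84.9, 54.9 and 72.2 CPM at day 35 (fell by 0.88, standard error 0.19, edgeR adjusted p = 0.0167). Col4a1, a basement membrane collagen, was 676 ± 23.7 CPM at day 21 and 402 ± 40.7 CPM at day 35 (SD, n = 5, fell by 0.75, edgeR adjusted p = 0.00968). Col1a1 fell by 0.94 (edgeR adjusted p = 0.0355). Its call was lost without any library but day 35 library 1 or 2 (up to 0.0833). Col1a2, whose product pairs with that of Col1a1, had a log2 fold change of -0.83 and missed the threshold (edgeR adjusted p = 0.0527).

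Taken over all 42 collagen genes tested, 14 were called lower and 1 higher. Col6a6 (chromosome 9, 105687809 to 105828160) had the smallest adjusted p among them, with 20.8, 31.2, 25.9, 32.3 and 23.2 CPM at day 21 and 8.61, 8.97, 9.03, 7.69 and 6.06 CPM at day 35 (fell by 1.73, standard error 0.17, edgeR adjusted p = 0.0014). The 1 that was higher, Col17a1, which epithelial cells use to attach to basement membrane and which was named after its values were seen, had a log2 fold change of 2.15 (edgeR adjusted p = 0.0271). This gene lost its call without day 21 library 1, 2 or 5 or day 35 library 3, 4 or 5 (up to 0.068). Leaving out 1 library at a time gave 7 to 17 collagens called lower. With both tissue scores as covariates 17 of the 42 were called lower, and with length and GC offsets 12.

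Genes of the activated, tumor-associated fibroblast did not move as 1 group. Of 15 tested, 1 was called higher and 2 lower, beside 6.24% and 4.58% over all genes. Fap, a serine protease of such fibroblasts, was 30.9, 52.9, 35.6, 39.6 and 34.9 CPM at day 21 and 21.3, 19.9, 22.6, 24.6 and 20.4 CPM at day 35 (fell by 0.83, edgeR adjusted p = 0.00919). Mmp11, a stromal protease, was 12.6, 16.3, 16.4, 18.1 and 11.2 CPM at day 21 and 36.5, 18.2, 28.9, 29.6 and 38.1 CPM at day 35 (log2 fold change 1.02, edgeR adjusted p = 0.0144). Acta2, the smooth muscle actin of myofibroblasts, was 92.9 ± 15.4 and 94.2 ± 17 CPM (SD, n = 5, edgeR adjusted p = 0.951).

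Several of the genes with the smallest p among those that were lower encode secreted proteins of connective tissue or imprinted growth genes. Pi15, a peptidase inhibitor, was 8.89, 13.9, 8.03, 8.82 and 9.48 CPM at day 21 and 2.25, 2.37, 2.6, 2.43 and 2.12 CPM at day 35 (fell by 2.06, standard error 0.18, edgeR adjusted p = 0.00118). Igsf10 fell by 1.54 (edgeR adjusted p = 0.00212). Of 14 imprinted growth genes, a list written after values had been seen, 5 were called lower and 0 higher, and leaving out 1 library at a time gave 3 to 10. Plagl1, a transcription factor gene of that network, was 49, 51.4, 49.7, 53 and 50.7 CPM at day 21 and 18.6, 32.9, 16.8, 14.9 and 13.2 CPM at day 35 (fell by 1.4, standard error 0.22, edgeR adjusted p = 0.0062). Mest fell by 1.48 (edgeR adjusted p = 0.00633) and Grb10 by 0.98 (edgeR adjusted p = 0.00498), while H19 was 1552 ± 326 and 1251 ± 673 CPM (SD, n = 5, edgeR adjusted p = 0.56). Exons of Copg2 overlap 23.1% of the exon bases of Mest on the other strand, and whether counting used strand is not given in the sources used here. The same holds for Igsf10, with 19.8% of its exon bases overlapped.

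Some epithelial genes of the tumor rose at day 35. Of 24 gastric epithelium genes tested, 4 were called higher (Tff2, Muc1, Spint1 and Tspan8) and 0 lower, and 15 were called higher without day 35 library 2, 8 without day 21 library 4 and 1 without any other single library. Tff2 (chromosome 17, 31141049 to 31144282), a trefoil peptide of gastric mucus, was 2.47, 2.4, 3.22, 6.87 and 3.96 CPM at day 21 and 31, 7.91, 81.7, 36.9 and 32.5 CPM at day 35. Every day 35 library was higher, library 2 included (log2 fold change 3.32, standard error 0.53, edgeR adjusted p = 0.00633). The general epithelial gene Epcam, named after its values were seen, was 242, 103, 206, 304 and 179 CPM at day 21 and 449, 118, 357, 387 and 435 CPM at day 35, where library 2 fell within the day 21 range (log2 fold change 0.76, edgeR adjusted p = 0.176, and 0.0156 without library 2). The calls of Muc1, Spint1 and Tspan8 were lost when any library but day 21 library 4 or day 35 library 2 was left out (up to 0.0942).

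Of 12 markers of intestinal differentiation tested, 5 were called higher and 0 lower. The count was 10 without day 35 library 2, 5 without day 21 library 4, 3 without day 35 library 1, 3 or 4, and 2 without day 21 library 1, 2, 3 or 5 or day 35 library 5. Tff3 (chromosome 17, 31125306 to 31129646), the trefoil peptide of goblet cells, was 0.753, 0.36, 0.629, 1.52 and 0.609 CPM at day 21 and 4.3, 2.54, 10.2, 23.8 and 13.5 CPM at day 35, without overlap (log2 fold change 3.78, standard error 0.61, edgeR adjusted p = 0.00633). Cdx2, the intestinal master regulator, had a log2 fold change of 1.10 (edgeR adjusted p = 0.0421). Its call was lost without any library but day 21 library 4 or day 35 library 2 (up to 0.102). Fabp1, a fatty acid binding protein of enterocytes and liver, was 0.323, 0.24, 0.592, 0.309 and 0.533 CPM at day 21 and 3.9, 0.635, 6.72, 21.2 and 7.34 CPM at day 35 (log2 fold change 4.30, standard error 0.75, edgeR adjusted p = 0.00883). Reg genes encode secreted lectins made by stressed gut epithelium and pancreas, and 4 of 4 tested were called higher. Leaving out 1 library brought this to 2 in 6 of 10 fits (day 21 library 1, 2 or 5 or day 35 library 1, 4 or 5), and with both tissue scores as covariates 2 were called. Reg3b was 52, 23.6, 67.7, 53.5 and 40.5 CPM at day 21 and 264, 55, 359, 421 and 320 CPM at day 35, with library 2 within the day 21 range (log2 fold change 2.58, standard error 0.46, edgeR adjusted p = 0.00947). The Reg list was written after values had been seen.

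Of 11 genes of epithelial stress and squamous cells tested, 3 were called higher (Krt5, Krt17 and Ly6d) and 0 lower. The count was 7 without day 35 library 2, 5 without day 21 library 4 and 1 without day 21 library 1 or 2. Krt5, the basal keratin, was 1.76, 6.48, 13, 2.97 and 13.1 CPM at day 21 and 41.2, 6.98, 76.2, 72.7 and 41.8 CPM at day 35 (log2 fold change 2.68, standard error 0.66, edgeR adjusted p = 0.0286). This gene lost its call without day 21 library 1 or 2 or day 35 library 3, 4 or 5 (up to 0.0713), and that of Krt17 without day 21 library 1, 2 or 5 (up to 0.0521). Of 5 skin genes tested, 2 were called higher, Krt5 and Lor, which encodes a protein of cornified epidermis, so squamous genes of tumor and of skin cannot be told apart. The call of Lor was lost without any library but day 35 library 2 or 3 (up to 0.0815). Matrilysin, encoded by Mmp7, was 1.76, 7.36, 3.03, 3.53 and 3.12 CPM at day 21 and 14.8, 4.82, 28.3, 25.3 and 39 CPM at day 35 (log2 fold change 2.58, standard error 0.52, edgeR adjusted p = 0.014), with library 2 within the day 21 range.

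The gastric score was 3.98 to 5.16 at day 21 and 4.06 to 5.74 at day 35, and the overlap came from day 35 library 2 alone. In the other day 35 libraries it was 5.5 to 5.74, above every day 21 library. With both tissue scores as covariates, 2 of 12 intestinal and 0 of 11 squamous genes were called higher. Tff3 (log2 fold change 2.45, edgeR adjusted p = 0.0105), Reg3b (log2 fold change 1.21, edgeR adjusted p = 0.00982) and Fabp1 (log2 fold change 2.29, edgeR adjusted p = 0.0359) were called in that fit as well. Of 24 cell cycle genes, 0 were called by edgeR, 0 by DESeq2 and 0 had an unadjusted p under 0.05, and 1 was called higher without day 35 library 2. Mki67, the proliferation antigen, was 50 ± 21.9 CPM at day 21 and 55.5 ± 20.8 CPM at day 35 (SD, n = 5, edgeR adjusted p = 0.79).

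Among genes that were near silent at day 21, Ppy, which encodes pancreatic polypeptide, had 1, 0, 0, 3 and 1 counts at day 21 and 24, 29, 52, 38 and 99 counts at day 35 (edgeR adjusted p = 0.00298). Rhox5, a homeobox gene of the X-linked Rhox cluster, was 0 to 0.259 CPM at day 21 and 2.31, 1.01, 1.21, 5.76 and 1.4 CPM at day 35 (log2 fold change 4.68, standard error 0.73, edgeR adjusted p = 0.0062). For Dapl1, a gene of epithelial differentiation, the difference on the log2 scale was 4.00 with a standard error of 0.46 (edgeR adjusted p = 0.00276). All 3 were higher in each day 35 library, library 2 included, and were called in every fit that left out a library. With so few day 21 counts, these genes passed the filter on low counts only through day 35. Fabp1 and Marco at day 21 and Ear2 at day 35 were also under 1 CPM in every library. Their place in the test leaned on the group where they were higher, and their fold changes rest on few counts. Rhox5 and Dapl1 were also named by a rule that asks for no overlap, so the separation is no added evidence. The same rule named Scd1, Pnpla3, Tff2, Tff3, Fabp1, Ankrd1 and Ear2, and the separation of their groups is no added evidence either.

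Of 28 muscle markers tested 1 was called lower, Myh2, and 0 higher, a share below the 4.58% over all genes. Without day 35 library 2, 9 were called lower, and without libraries 2 and 4, 23. The list's share of counts overlapped between the time points. Myh2 (chromosome 11, 67171027 to 67197517), the myosin of oxidative fast fibres, was 2548, 3401, 2676, 1468 and 2940 CPM at day 21 and 488, 844, 490, 690 and 573 CPM at day 35. Each day 35 library was below each day 21 library, including library 2, which held the most muscle (fell by 2.08 on the log2 scale, standard error 0.27, edgeR adjusted p = 0.00377). Myh4, the myosin of glycolytic fibres, was 29400, 30980, 35740, 14760 and 37420 CPM at day 21 and 12210, 65220, 15730, 26780 and 10740 CPM at day 35 (edgeR adjusted p = 0.854). In a list of 16 genes of oxidative fibres, written after values had been seen, 4 were called lower and 0 higher, against 0 of 14 in either direction for glycolytic fibres, where edgeR gave 1 unadjusted p under 0.05 and DESeq2 called 1 lower. Without day 35 library 2, 9 oxidative and 2 glycolytic genes were called lower. Without libraries 2 and 4 the counts were 16 and 11. Without day 21 library 4, 8 oxidative genes were called lower. Ckmt2, the mitochondrial creatine kinase of muscle, was 499, 486, 531, 287 and 569 CPM at day 21 and 55.9, 222, 63.2, 112 and 49.5 CPM at day 35 (fell by 2.24, standard error 0.41, edgeR adjusted p = 0.0103).

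Of 20 muscle atrophy genes tested, 4 were called higher (Mt2, Mt1, Eif4ebp1 and Fbxo32) and 0 lower, beside 6.24% of all genes called higher. The other 16 did not pass the test. Mt1 and Mt2 are counted again among the glucocorticoid response genes below. Leaving out 1 library gave 3 to 4 higher and 0 to 2 lower, and with both tissue scores as covariates 8 were called higher. Fbxo32, the ubiquitin ligase atrogin-1, was 172, 239, 248, 93.4 and 255 CPM at day 21 and 252, 853, 335, 485 and 430 CPM at day 35 (log2 fold change 1.22, standard error 0.35, edgeR adjusted p = 0.0464). Its groups overlapped at 1 library. The call was lost without any library but day 35 library 1 or 2 (up to 0.107). Trim63, the partner ligase MuRF1, was 111 ± 32.8 and 221 ± 134 CPM (SD, n = 5, edgeR adjusted p = 0.124). Eif4ebp1, a brake on translation, was 51.2, 52.8, 50.5, 39.3 and 44 CPM at day 21 and 73, 177, 71.9, 174 and 193 CPM at day 35, without overlap (log2 fold change 1.53, standard error 0.29, edgeR adjusted p = 0.011).

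Ankrd1 (chromosome 19, 36111961 to 36120099), a stretch-responsive titin partner of striated muscle that other cells also express, was 8.46, 4.76, 13.1, 15.8 and 11.9 CPM at day 21 and 80.9, 64.1, 52.6, 67.8 and 196 CPM at day 35 (log2 fold change 3.09, standard error 0.42, edgeR adjusted p = 0.00466). The metallothioneins bind zinc and respond to glucocorticoids and inflammation. Mt2 was 46.8, 21.4, 52.7, 41.6 and 53.1 CPM at day 21 and 128, 169, 118, 391 and 232 CPM at day 35 (log2 fold change 2.27, standard error 0.36, edgeR adjusted p = 0.0062), and Mt1 had a log2 fold change of 1.85 (edgeR adjusted p = 0.0109). An antisense gene overlaps 73.5% of the exon bases of Mt2. Of 14 glucocorticoid response genes tested, 5 were called higher and 0 lower, namely Mt2, Mt1, Lcn2, Per1 and Cebpd, of which 4 also stand in another list described here. Cebpd, a transcription factor gene, was 36.2, 38.2, 35.6, 44.9 and 52.6 CPM at day 21 and 69.4, 107, 83.7, 146 and 62.8 CPM at day 35 (log2 fold change 1.18, standard error 0.23, edgeR adjusted p = 0.0122).

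Messenger RNAs of cytosolic ribosomal proteins rose at day 35 in most of the family. Of 82 tested, 67 were called higher and 0 lower, 49 to 76 when 1 library was left out, with a median log2 fold change of 0.97. The score of the family was 7.58 to 7.63 at day 21 and 8.23 to 9.19 at day 35. Rpl41 (chromosome 10, 128548114 to 128549305), whose product is among the shortest proteins known, was 157, 128, 133, 145 and 153 CPM at day 21 and 474, 490, 388, 1015 and 495 CPM at day 35 (log2 fold change 2.00, standard error 0.25, edgeR adjusted p = 0.00338). Rpl39 was 93.7, 86.7, 96.7, 92.7 and 109 CPM at day 21 and 248, 237, 218, 325 and 278 CPM at day 35 (log2 fold change 1.45, standard error 0.14, edgeR adjusted p = 0.0014). Rplp0, which has a longer transcript, was 1003 ± 24.6 and 1658 ± 328 CPM (SD, n = 5, log2 fold change 0.72, edgeR adjusted p = 0.0299). Its call was lost without day 21 library 1, 2, 3, 4 or 5 or day 35 library 5 (up to 0.0772). The family also gave 7 of the 13 genes in which all 19 day 35 libraries lay above all 10 day 21 libraries. Its share of counts was 2.03% to 2.5% in untreated mice at day 21, 2.97% to 6.04% at day 35, and 1.75% to 2.23% in the 4 treated day 35 libraries whose gastric share was 0.0157% or less.

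A smaller trend with transcript length ran over all genes. The median log2 fold change was 0.33 in the 10% of genes with the shortest exon length and -0.14 in the longest 10%, and 17.6% of the shortest were called higher against 0.732% of the longest. By GC content it was -0.12 in the lowest 10% and 0.22 in the highest. With offsets for length and GC, 65 of the 82 ribosomal protein genes were called higher. The study's methods set a minimum RNA integrity score, the scores of single libraries were not analysed here, and the part of RNA quality in the trend was not tested. Cirbp and Rbm3, RNA-binding proteins that cold and the clock regulate, were both called. Cirbp was 34.4, 29.8, 33.5, 20.5 and 26.4 CPM at day 21 and 55.3, 53.7, 53.9, 82.9 and 62.8 CPM at day 35 (log2 fold change 1.09, standard error 0.17, edgeR adjusted p = 0.0062), and Rbm3 had a log2 fold change of 1.04 (edgeR adjusted p = 0.00573).

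**Figure D4:**
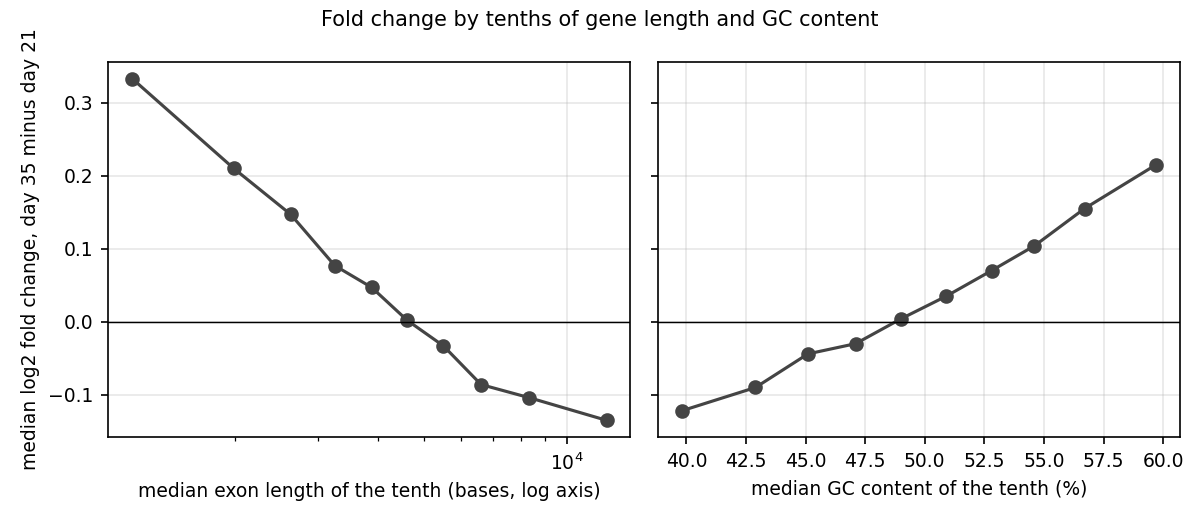
Median log2 fold change, day 35 minus day 21, in 10 equal groups of genes by exon length (bases, log axis) and by GC content (%). The median runs from 0.33 in the shortest group to -0.14 in the longest and from -0.12 in the lowest GC group to 0.22 in the highest.

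Of 8 neutrophil genes tested, 3 were called higher (S100a8, S100a9 and Lcn2) and 0 lower, and 2 to 4 when 1 library was left out. S100a8, a calprotectin subunit, was 3.69, 1.52, 3.15, 7.06 and 2.55 CPM at day 21 and 20, 6.52, 13.8, 15.8 and 20.3 CPM at day 35, with library 2 within the day 21 range (log2 fold change 2.08, standard error 0.40, edgeR adjusted p = 0.0123). Lcn2, an iron-scavenging protein that epithelium makes too, was 8.64, 13.4, 10.6, 11.4 and 7.5 CPM at day 21 and 24.8, 16.5, 40.8, 49.7 and 42.5 CPM at day 35 (log2 fold change 1.76, standard error 0.29, edgeR adjusted p = 0.00633). S100a9 had a log2 fold change of 1.53 (edgeR adjusted p = 0.0331). This gene lost its call without any library but day 21 library 4 or day 35 library 2 (up to 0.0848). Saa3, an acute phase protein made locally by macrophages and fat, was 4.95, 1.12, 4.25, 4.61 and 5.52 CPM at day 21 and 21.5, 7.62, 14.8, 28.6 and 43.7 CPM at day 35 (log2 fold change 2.5, standard error 0.48, edgeR adjusted p = 0.0123). In an acute phase list written after values had been seen, 6 of 11 genes tested were called higher, 3 to 8 when 1 library was left out (3 without day 21 library 2, 3 or 5 or day 35 library 4 or 5) and 3 with both tissue scores as covariates. The 1 called lower was Orm1, whose call was lost without day 21 library 1, 2 or 5 or day 35 library 5 (up to 0.0545).

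Of 16 genes of resident and alternatively activated macrophages, a list written after values had been seen, 7 were called lower and 2 higher. The 2 were Chil4 and Marco, both named after their values were seen, and Chil4 kept its call only without day 35 library 2. Leaving out 1 library gave 5 to 8 lower and 0 to 4 higher. Timd4 (chromosome 11, 46810800 to 46844332), the phosphatidylserine receptor of long-lived cavity macrophages, was 7.96, 9.49, 3.92, 3.9 and 7.34 CPM at day 21 and 1.57, 1.95, 1.69, 2.02 and 2.12 CPM at day 35 (fell by 1.80, standard error 0.28, edgeR adjusted p = 0.0062). Cd163, the haemoglobin scavenger receptor, was 94.7, 174, 130, 98.3 and 115 CPM at day 21 and 85.8, 50.9, 56.1, 58.6 and 66.2 CPM at day 35 (fell by 0.95, standard error 0.20, edgeR adjusted p = 0.0156). F13a1, the clotting factor chain made by resident macrophages and monocytes, fell by 1.11 (edgeR adjusted p = 0.0066). Marco, a scavenger receptor for bacteria, went up from 0.43, 0.08, 0.518, 0.279 and 0.533 CPM at day 21 to 1.2, 0.423, 1.66, 4.36 and 9.11 CPM at day 35 (log2 fold change 3.17, edgeR adjusted p = 0.0272). Its call was lost without day 21 library 1, 2, 3 or 5 or day 35 library 4 or 5 (up to 0.0644). Of 12 general macrophage markers 1 was called lower, Cd163, beside 4.58% of all genes. The score of these markers was 6.16 to 6.37 at day 21 and 5.19 to 6.42 at day 35.

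Of 4 eosinophil genes tested, 2 were called lower, Ear2 and Ccr3, beside 4.58% of all genes, and the median log2 fold change was -1.04. The list did not move as 1 group. DESeq2, which also kept genes with few counts, tested all 7 listed genes. It called 1 higher and 2 lower, with a median log2 fold change of 0.92. Prg2, which the edgeR filter removed, had 0 to 10 counts at day 21 and 0 to 61 at day 35. Ear2, an eosinophil ribonuclease whose reads could be shared with close relatives, was 0.681, 3.36, 1.67, 0.836 and 0.951 CPM at day 21 and 0.257, 0.465, 0.237, 0.288 and 0.0299 CPM at day 35 (fell by 2.57, standard error 0.59, edgeR adjusted p = 0.0217, and 0.0506 without day 21 library 2). The call of Ccr3 was lost without any library but day 21 library 1 or day 35 library 1 or 2 (up to 0.103). Of 8 monocyte genes 2 were called lower, F13a1 and Ccr2, the receptor for CCL2 (fell by 1.01, edgeR adjusted p = 0.0279). The call of Ccr2 was lost without day 21 library 1, 2, 3 or 5 or day 35 library 3, 4 or 5 (up to 0.0706).

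In the T cell and checkpoint lists 1 gene each was called, beside 6.24% of all genes called higher and 4.58% called lower. Counts this small cannot set either list apart from all genes. Of 10 T cell markers tested 1 was called lower, Cd28, the costimulatory receptor, with 4.41, 6.72, 8.1, 3.34 and 6.17 CPM at day 21 and 1.48, 3.68, 1.9, 1.07 and 1.79 CPM at day 35 (fell by 1.54, standard error 0.34, edgeR adjusted p = 0.0202). Of 17 inhibitory checkpoint genes 1 was called higher, Pdcd1, which encodes PD1, with 1.97, 1.48, 1.29, 2.66 and 1.26 CPM at day 21 and 3.68, 2.5, 3.97, 4.44 and 3.13 CPM at day 35 (log2 fold change 1.03, standard error 0.26, edgeR adjusted p = 0.0312). Its lowest day 35 library lay below the highest of day 21. Leaving out a library ended the call of Cd28 without day 21 library 2, 3 or 5 or day 35 library 5 (up to 0.053) and that of Pdcd1 without any but day 21 library 4 or day 35 library 2 (up to 0.0812). Cd8a was 2.84 ± 1.12 and 3.31 ± 1.04 CPM (SD, n = 5, edgeR adjusted p = 0.668) and Foxp3, the regulatory T cell factor, 1.82 ± 0.364 and 2.76 ± 0.761 CPM (SD, n = 5, edgeR adjusted p = 0.137).

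Interferon-induced genes were called lower in 4 of 18 type I genes (Mx1, Ifi44, Rsad2 and Stat2) and in 3 of 19 interferon gamma genes (Ciita and Gbp4 among them), with 0 higher in either list. Mx1, an antiviral GTPase, was 14.9, 10.8, 8.36, 9.22 and 7.42 CPM at day 21 and 5.36, 2.71, 6.9, 5.14 and 4.06 CPM at day 35 (fell by 1.07, standard error 0.26, edgeR adjusted p = 0.0287). Leaving out 1 library ended the call of Mx1 without day 21 library 1 or 2 or day 35 library 4 or 5 (up to 0.0722). Calls of Ifi44, Rsad2, Stat2, Ciita and Gbp4 were each lost in at least 5 of the 10 fits (up to 0.0971). Without 1 library, between 0 and 4 of the type I and between 0 and 5 of the gamma genes were called lower. With length and GC offsets 3 and 0 were called, and with both tissue scores as covariates 5 and 12.

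Of 20 genes of the IL6, JAK and STAT3 pathway, 3 were called lower (Jak1 and Lifr among them) and 0 higher, beside 4.58% of all genes called lower. The list did not shift as a whole, with a median log2 fold change of 0.016 and 12 of the 20 above 0. Leaving out 1 library gave 0 to 4 lower, and length and GC offsets gave 0. With both tissue scores as covariates 1 was called lower and 1 higher. Jak1, a kinase shared by many cytokine receptors, was 219, 255, 230, 209 and 243 CPM at day 21 and 156, 187, 159, 121 and 172 CPM at day 35 (fell by 0.54, standard error 0.14, edgeR adjusted p = 0.0336). This gene lost its call without day 21 library 1, 2, 3 or 5 or day 35 library 1, 3 or 5 (up to 0.0854), and that of Lifr also without day 35 library 4 (up to 0.0962). Stat3 was 222 ± 16.5 and 226 ± 30.1 CPM (SD, n = 5, edgeR adjusted p = 0.9). Il6 was 0.67 ± 0.394 and 1.01 ± 0.795 CPM (SD, n = 5, edgeR adjusted p = 0.51). Of 29 chemokine genes 2 were called higher and 0 lower, a share near the 6.24% called higher over all genes. They were Ccl20, which attracts CCR6-bearing cells (log2 fold change 1.84, edgeR adjusted p = 0.0339), and Cxcl14 (log2 fold change 0.96, edgeR adjusted p = 0.0425). In each the call was lost in 8 of the 10 fits that left out a library (up to 0.0976). Ccl20 kept it only without day 21 library 4 or day 35 library 2, and Cxcl14 only without day 35 library 2 or 5.

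Of 16 angiogenesis genes 3 were called lower (Tek, Vegfa and Angpt1) and 0 higher, and leaving out 1 library at a time gave 0 to 7. Vegfa was 236, 248, 235, 215 and 268 CPM at day 21 and 136, 213, 133, 113 and 132 CPM at day 35 (fell by 0.72, standard error 0.17, edgeR adjusted p = 0.0263). Every day 35 library was below every day 21 library, with library 2 nearest. The call was lost without day 21 library 1, 2, 3 or 5 or day 35 library 1, 3 or 5 (up to 0.0696). Tek, the angiopoietin receptor, and Angpt1, its ligand, kept their calls only without day 21 library 4 or day 35 library 2 (up to 0.115). Of 20 hypoxia genes 2 were called lower, beside 4.58% of all genes, Vegfa and P4ha1, which encodes a collagen prolyl hydroxylase. P4ha1 was 114, 119, 88.9, 133 and 108 CPM at day 21 and 53.6, 68.9, 54.8, 60.6 and 50.7 CPM at day 35 (fell by 0.96, standard error 0.13, edgeR adjusted p = 0.00486), and it held in all 10 such fits.

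**Figure D5:**
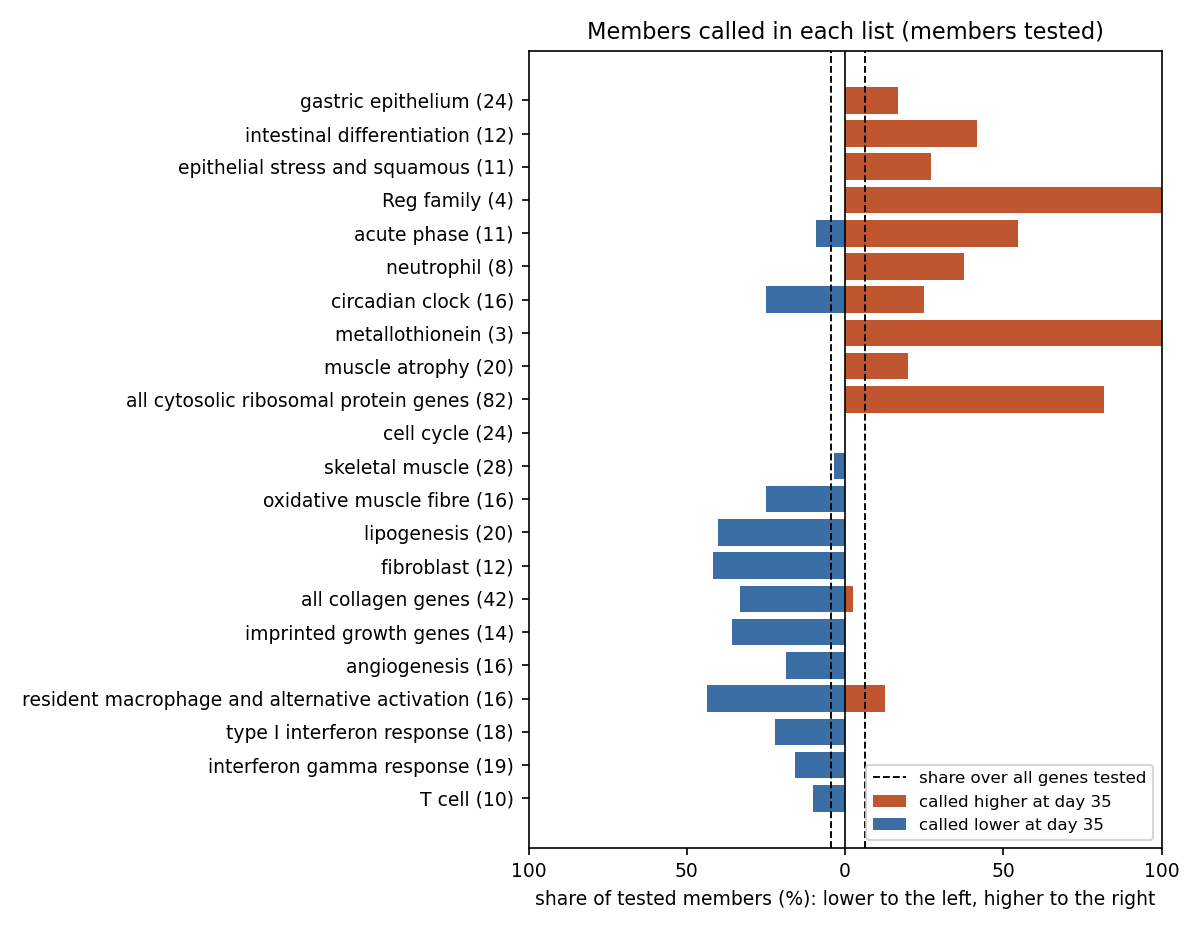
Share of the tested members of each gene list (number tested in brackets) that were called higher (right) or lower (left) at day 35, beside the shares over all genes tested (dashed lines, 6.24% higher and 4.58% lower). The ribosomal proteins (67 of 82 higher), the collagens (14 of 42 lower) and the clock genes (4 in each direction of 16) lie beyond the dashed lines, and no cell cycle gene was called.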

How the data were processed

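Raw counts per gene were deposited by the authors as 1 table of 24421 gene symbols, without normalization. The study's methods name STAR and HTSeq on mm10, whereas the submitters' notes give STAR 2.7.0f and featureCounts 1.6.4; which made the table, its annotation and its strand setting are not given in the sources used here. RNA extraction is also described differently in the methods and the labels. Each library came from a separate mouse, grouped by its title, and replicate numbers were not used to pair mice across days. Genes were tested with edgeR 4.0.16 in R 4.3.3 (filterByExpr, TMM, glmQLFit, glmQLFTest, two-sided, Benjamini-Hochberg), with no covariate, on the 10 untreated libraries. Standard errors are the absolute log2 fold change divided by the square root of F. List scores are mean log2 CPM with a prior count of 2, and a gene at 3 counts or fewer in every library of a group was treated as at the floor. Symbols were matched to GENCODE vM21 on GRCm38 (95.5%). Genes were named by a rule: the 12 largest non-overlapping changes each way, the first 2 members and 5 smallest p-values of each list, the 5 smallest p-values each way, and genes the study names; exceptions are stated, and some results are not reported here. Members, lists and tests were chosen with earlier results of these data known. The script was tested on simulated data. P-values measure the spread between these mice and their libraries. Alternatives, among them DESeq2 1.42.0, tissue scores as covariates and each library left out, are given at the end.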

Additional observations from a re-analysis of the deposited data

Results flagged for a closer look

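In 374 sets of 5 values (a gene or list score in 1 group), 43 had a lowest or highest library whose gap to the next exceeded 0.71 of the range, where chance gives about 1 in 20. The library was day 35 library 2 in 16 of them, day 21 library 4 in 11, day 21 library 2 in 7 and day 35 library 4 in 6.

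Day 35 library 2 was the extreme of its group mostly in epithelial genes. Levels there were 118 CPM for Epcam, 31.9 CPM for Muc1, 39.9 CPM for Spint1, 15.4 CPM for Cdx2 and 6.98 CPM for Krt5. Genes of the Reg family followed, with 32.6 CPM for Reg1, 55 CPM for Reg3b and 62.8 CPM for Reg3g. The same library held 5.25 CPM of S100a9 and 64.7 CPM of Igf2. Its scores were 4.06 for gastric epithelium, 3.00 for intestinal differentiation and 3.74 for the Reg family. Scores of 2.77 for neutrophils, 4.31 for the interferon gamma response and 6.31 for the cold-inducible pair also stood apart there.

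In day 21 library 4, muscle genes were the extreme, with 14760 CPM of Myh4, 287 CPM of Ckmt2, 77.4 CPM of Perm1 and 9.59 CPM of Ppara. Scores there were 10.46 for skeletal muscle, 6.46 for oxidative fibres and 7.21 for oxidative phosphorylation. Arntl at 34.8 CPM, Mlxipl at 84.6 CPM, Rplp0 at 959.5 CPM and the ribosomal protein score at 7.58 were also apart in that library.

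Day 21 library 2 was the extreme for Pdgfra (196 CPM), Tek (93.1 CPM), Folr2 (94.5 CPM), Ifi44 (11.0 CPM), Ctla4 (0.52 CPM), Mt2 (21.4 CPM) and Saa3 (1.12 CPM). Day 35 library 4 was the extreme for Rpl41 (1015 CPM), Rplp0 (2233 CPM), the ribosomal protein score (9.19), Bri3 (194 CPM), Orm1 (3.08 CPM) and Zeb2 (29.8 CPM). Per1 at 61.6 CPM and Lor at 0.266 CPM stood apart in day 21 library 5, and the angiogenesis score of 4.46 in day 21 library 3.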

How the results depend on the processing

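Of the 1687 genes called, none changed sign under any of the 25 alternative fits. The count was 3345 when the muscle score entered as a covariate, 806 with the gastric score, 3168 with DESeq2 and 5624 without day 35 libraries 2 and 4, a choice made after seeing the data; leaving out 1 library gave 654 to 4915. All other settings stayed within 1.5 times the count, among them both tissue scores (1763, which share 905 genes with the 1687), length and GC offsets (1464, added after seeing the data) and an unadjusted p under 0.05 with a fold over 2 (671 higher and 518 lower). Of 3706 values of single genes under the alternatives, 601 lost a call and 45 gained one, 3060 did neither, and 0 reversed. With the gastric score as a covariate, 581 of the 1687 were called. With the replicate number as a block, 1773 genes were called, 1307 of them shared; the numbers do not pair the mice, since same-numbered libraries correlated at -0.011, 0.447, -0.097, -0.126 and -0.133. The causes of these shifts were not tested. Depth was alike in all libraries, and thinning to 26641402 counts gave 1685 calls. Genes under about 1 CPM, such as Ppy and Gzmc, rest on few counts.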

Other observations

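Of 11 mesothelium genes tested 1 was called lower, beside 4.58% of all genes, and 0 higher. The 1 was Gpm6a, a membrane glycoprotein, with 19.6, 49, 19.9, 45.7 and 34.8 CPM at day 21 and 18.3, 9.86, 14, 11.9 and 11.6 CPM at day 35 (fell by 1.36 on the log2 scale, standard error 0.28, edgeR adjusted p = 0.0158). The groups did not overlap, and 4 of the 11 were called lower with both tissue scores as covariates. Zeb2, a repressor of epithelial genes, was 83, 122, 85.2, 94.9 and 90.3 CPM at day 21 and 55.8, 55.8, 55.3, 29.8 and 55.2 CPM at day 35 (fell by 0.92, edgeR adjusted p = 0.0143).

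Of 6 liver genes tested, 2 were called higher and 0 lower, and 0 with both tissue scores as covariates. Apoa1, the main apolipoprotein of high-density lipoprotein, was 0.836 to 1.79 CPM at day 21 and 2.34, 1.23, 3.94, 18.2 and 5.91 CPM at day 35, with library 2 within the day 21 range (log2 fold change 2.35, edgeR adjusted p = 0.0381). Its call was lost without any day 21 library or day 35 library 4 or 5 (up to 0.0908). Chac1, a glutathione-degrading enzyme of the integrated stress response, was 7.1, 22.1, 16.7, 8.48 and 22.1 CPM at day 21 and 32.8, 99.3, 55, 77.8 and 25.9 CPM at day 35 (log2 fold change 1.93, edgeR adjusted p = 0.0198), the 1 gene called higher of 15 in that list, a share near the 6.24% over all genes.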
